A study of Homo sapiens with 22 samples.

Results

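The genes described here encode proteins of the tight junction, the seal between neighbouring epithelial cells, and were chosen by name: the claudins CLDN1, CLDN2, CLDN4, CLDN7 and CLDN10, the strand membrane proteins OCLN (occludin) and MARVELD2 (tricellulin), the scaffold TJP1 (ZO-1), and the junctional adhesion molecules F11R (JAM-A) and JAM3 (JAM-C). All 10 were rows of a table of 36859 genes measured in 22 RNA-seq libraries. Of these members, 8 of 10 had 10 or more normalized counts in 2 libraries or more and were tested together with the 14585 genes of the table that had. CLDN7 and CLDN10 had not, and their values are given without a test.

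The RNA came from human renal proximal tubule epithelial cells (RPTEC) immortalised with hTERT, which all groups carried and which was kept under G418, in 11 groups of 2 libraries. The study asked how loss of SETD2, the enzyme that trimethylates lysine 36 of histone H3, changes the epithelial state of these cells. In medium with 2% fetal bovine serum (FBS) were unedited cells (WT), WT treated with TGF-β at 10 ng/mL for 72 h (WT_TGFb), the SETD2 knockout clones KO1 and KO2, and a line labelled KO2_Rescue. In regular medium with 10% FBS were the clones Rescue1 and Rescue2, and WT cells carrying lentiviral eGFP (WT_eGFP, the control vector), SOX2 (WT_SOX2), OCT2, which is POU2F2 (WT_OCT2), or PRRX1 (WT_PRRX1). Each knockout is a single clone edited with CRISPR in exon 3 of SETD2, and each rescue clone is a single colony of knockout cells transduced with 3×FLAG full-length SETD2 and selected with blasticidin, whereas the eGFP, SOX2, OCT2 and PRRX1 lines are puromycin-selected pools. The sources used here do not give the knockout clone from which Rescue1 or Rescue2 came, so the mean of both rescue clones is compared with the mean of both knockout clones. Serum also differed between rescue and knockout clones and between WT_eGFP and WT, together with transduction and selection, and these cannot be told apart. The labels do not say that the 2 libraries of a group came from separate cultures, so p-values measure only the spread between these libraries.

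Levels are given as normalized counts, the read counts of a gene after scaling libraries to a common size, which were computed back from the deposited log2 values. A change is the difference of the group means of log2(normalized count + 1) with its standard error (SE), tested with limma and Benjamini-Hochberg adjusted over all 14585 genes. A gene was called where its adjusted p was under 0.05 and its change was over 1 log2 unit in either direction. KO1, KO2, WT_TGFb and WT_eGFP were each compared with the same WT libraries, and the rescue, SOX2, OCT2 and PRRX1 lines with the same WT_eGFP libraries.

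Library totals ranged from 11674491 to 16758645 normalized counts. SETD2 mRNA itself lay at 1852 and 2061 in WT, between 1046 and 1130 in the 4 knockout libraries, and between 9764 and 10440 in the 4 rescue libraries. The libraries labelled KO2_Rescue had 834.5 and 819.6, below KO2 (log2 change −0.35, adjusted p = 0.00382, limma), which goes against that label, so no direction is drawn from that line as a rescue. Of 14 proximal tubule markers, 7 were above 3 counts in WT, while LRP2, SLC22A6, SLC22A8 and HNF4A, which define this segment in the kidney, were at 0 in both WT libraries. ANPEP, CUBN, GATM and MME, 4 of the 7 tested, were called higher in both knockout clones, as were 6.95% of all genes. This list summed to 965.7 to 1190 normalized counts in WT and 1735 to 2354 in knockout libraries. Of 8 fibroblast markers, DCN, LUM, PDGFRA and THY1 were called higher in both knockout clones, as were 6.95% of all genes, while COL3A1 was called lower in KO1 (change −2.37) and COL1A1 was not called in either clone (−1.45 and 0.53). The fibroblast list summed to 100100 to 236700 normalized counts in knockout libraries and 846.4 to 12450 in WT. The sum in WT_TGFb was 46400 to 47810 and in the rescue libraries 830.1 to 1536. Of 8 general epithelial markers, CDH1, EPCAM, ESRP2 and MUC1 were called lower in both knockout clones, as were 5.73% of all genes, and the list summed to 10100 to 20650 against 36460 to 39110 in WT. WT_eGFP, with SETD2 unedited, had 19530 to 20640, the rescue libraries 36030 to 40580 and WT_TGFb 29420 to 31050. Rescue against knockout clones called ESRP2, MUC1 and KRT8 higher (changes 1.86, 1.70 and 1.84), beside 23.3% of all genes called. CDH1 (0.0003) and EPCAM (0.23) were not called there, and CDH1 was at 0 in both Rescue1 libraries. Against WT_eGFP the rescue clones had ESRP2 (−1.13) and MUC1 (−2.84) called lower and KRT8 (1.33) higher, beside 13.1%. Of 8 endothelial markers, 5 were tested and KDR was called higher in both clones, as were 6.95% of all genes. KDR was at 0.7704 and 0 normalized counts in WT and 102.7 to 145.3 in the knockout libraries. The endothelial list summed to 155.4 to 203.4 in knockout libraries and 10.62 to 40.26 in WT, with CLDN5 and EMCN at 0 in both groups. Blood markers summed to at most 20.09. Of 5 thick ascending limb markers, UMOD and CLDN19 were at 0 in WT. That list, which includes CLDN16, summed to 1034 to 1185 in WT, 45.27 to 121.2 in knockout libraries and 223.8 to 322.7 in WT_eGFP. Of 8 distal tubule and collecting duct markers, 4 were tested. SCNN1A was called lower in both clones, beside 5.73% of all genes. KO1 called 2 lower and 1 higher, beside 13.1% and 12.0% of all genes. With TGF-β, SCNN1A and SLC12A3 were also called lower (changes −2.82 and −3.76), beside 7.84% of all genes called. The distal list summed to 252.7 to 291.9 in WT, 66.68 to 219.3 in knockout libraries and 52.61 to 83.7 in WT_TGFb. These libraries are bulk RNA, so fewer cells of a type and less RNA per cell cannot be told apart, and the part of these markers in the changes below was not tested.

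Tight junctions ring the top of the side walls of epithelial cells and decide what passes between them. Claudins form the strands and set their selectivity: some tighten the seal, while CLDN2 makes a pore for small cations and water that is typical of the proximal tubule. Occludin and tricellulin sit in the same strands, tricellulin where 3 cells meet, ZO-1 ties the strands to actin, and the junctional adhesion molecules are immunoglobulin-like proteins that help set up the junction and cell polarity.

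In KO1, 6 of the 8 tested members were called against WT, where 25.0% of all tested genes were called. CLDN2, CLDN4, OCLN, TJP1 and JAM3 fell and CLDN1 rose, against 13.1% of all genes called lower and 12.0% called higher. In KO2, 4 of 8 were called, against 16.3% of all genes: CLDN2, CLDN4 and JAM3 fell (7.29% of all genes did) and CLDN1 rose (9.02%). So CLDN2, CLDN4 and JAM3 were called lower in both clones, which 5.73% of all genes were, and CLDN1 was called higher in both, as were 6.95% of all genes. With TGF-β, 2 of 8 members were called, CLDN2 and MARVELD2, both higher, beside 7.84% of all genes called and 3.58% called higher. The median change of the 8 members was −1.76 in KO1, −1.01 in KO2 and 0.45 with TGF-β, where the median over all genes was 0 in KO1 and 0.00 in KO2 and with TGF-β. The plot of the change from WT shows the members side by side.

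**Figure D1:**
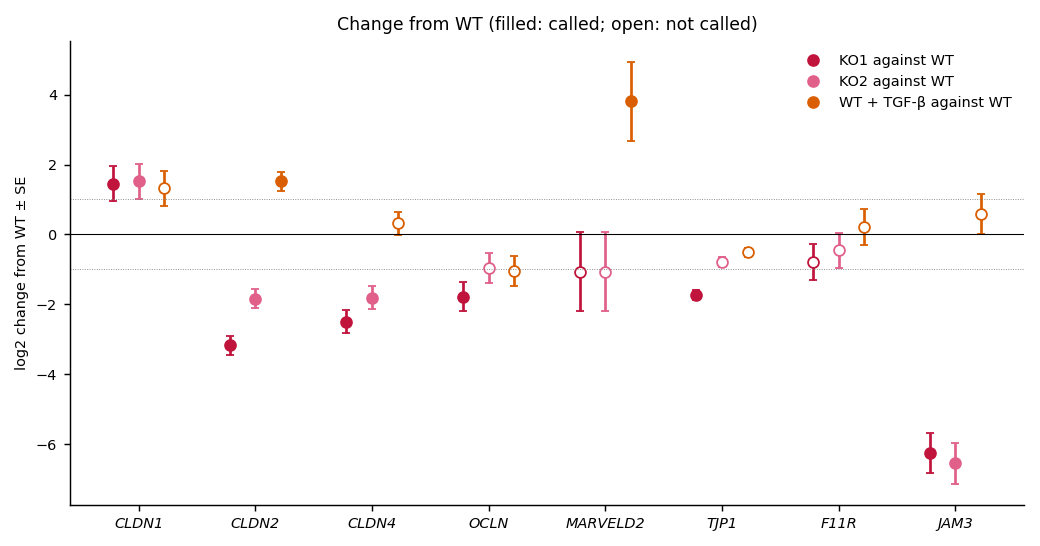
Log2 change from WT (vertical axis, ± SE, scale of log2(normalized count + 1)) of the 8 tested members in KO1, KO2 and TGF-β-treated WT, with 2 libraries a group. Filled points were called, open points were not, and dotted lines mark 1 log2 unit; JAM3 sits at −6.26 and −6.55 in the knockout clones and 0.59 with TGF-β.

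Promoters are shown for CLDN4 and CLDN2, which fell in both knockout clones, for CLDN1, which rose in both, and for TJP1, which was called lower in KO1, because these genes differ in how many CpG dinucleotides lie at their starts. The windows cover 250 bases before and 50 after each start, are from RefSeq on GRCh38.p14, and were found for 8 of the 10 members; F11R and JAM3 had none here. They are printed 5′ to 3′ on the gene's strand with every CpG in capitals.
CLDN4 (chr7:73830746-73831045, plus strand): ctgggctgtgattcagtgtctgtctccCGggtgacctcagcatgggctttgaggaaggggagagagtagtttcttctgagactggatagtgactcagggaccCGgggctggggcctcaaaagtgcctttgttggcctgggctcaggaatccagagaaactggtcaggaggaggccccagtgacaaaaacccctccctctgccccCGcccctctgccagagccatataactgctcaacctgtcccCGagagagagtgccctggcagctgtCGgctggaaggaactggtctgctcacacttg
CLDN2 window 1 (chrX:106899914-106900213, plus strand): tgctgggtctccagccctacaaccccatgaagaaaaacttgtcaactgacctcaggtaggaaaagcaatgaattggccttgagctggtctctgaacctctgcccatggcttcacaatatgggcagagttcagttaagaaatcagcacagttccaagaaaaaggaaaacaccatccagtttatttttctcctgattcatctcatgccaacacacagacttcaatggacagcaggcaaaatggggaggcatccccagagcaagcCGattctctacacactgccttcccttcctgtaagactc
CLDN2 window 2 (chrX:106918110-106918409, plus strand): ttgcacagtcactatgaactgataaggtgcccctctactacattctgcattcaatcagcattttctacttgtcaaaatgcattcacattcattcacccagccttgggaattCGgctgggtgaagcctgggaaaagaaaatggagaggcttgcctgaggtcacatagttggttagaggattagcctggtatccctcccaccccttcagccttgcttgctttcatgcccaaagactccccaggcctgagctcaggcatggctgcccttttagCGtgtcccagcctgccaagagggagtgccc
CLDN1 (chr3:190322397-190322696, minus strand): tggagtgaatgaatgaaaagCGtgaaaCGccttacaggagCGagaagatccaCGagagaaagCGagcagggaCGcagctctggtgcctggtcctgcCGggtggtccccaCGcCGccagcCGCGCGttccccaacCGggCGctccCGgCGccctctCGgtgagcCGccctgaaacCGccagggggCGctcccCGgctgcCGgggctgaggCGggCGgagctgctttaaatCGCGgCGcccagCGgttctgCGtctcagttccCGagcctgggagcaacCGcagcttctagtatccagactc
TJP1 window 1 (chr15:29969000-29969299, minus strand): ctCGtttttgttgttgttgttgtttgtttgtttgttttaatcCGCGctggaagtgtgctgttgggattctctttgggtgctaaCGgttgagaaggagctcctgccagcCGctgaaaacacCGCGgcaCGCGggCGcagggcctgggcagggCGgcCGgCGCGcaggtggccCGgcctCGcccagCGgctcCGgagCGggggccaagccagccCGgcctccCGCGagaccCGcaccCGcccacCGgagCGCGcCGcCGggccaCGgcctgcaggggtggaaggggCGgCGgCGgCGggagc

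Over all 35116 promoter windows of this length, the median was 14 CpG. CLDN4 held 5 and the CLDN2 windows 1 and 2, whereas CLDN1, which was called higher in both clones, held 31 and the TJP1 window shown 34. The other TJP1 windows held 36, 21 and 3, MARVELD2 25, the OCLN windows 26 and 28, those of CLDN7 10 and 30, and those of CLDN10 12 and 36. The E-box CAGGTG (or CACCTG on the other strand), the kind of site that SNAI and ZEB repressors bind, was in 20.6% of all windows: it was in both OCLN windows, once in the first and 2 times in the second, once in the TJP1 window shown and 5 times in CLDN7 window 2, and these letters were not in the CLDN1, CLDN2, CLDN4, CLDN10 or MARVELD2 windows. The GRHL site AACCGGTT was in 0.134% of all windows and in none of the members' windows. These matches describe the sequence and are not measured sites.

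**Figure D2:**
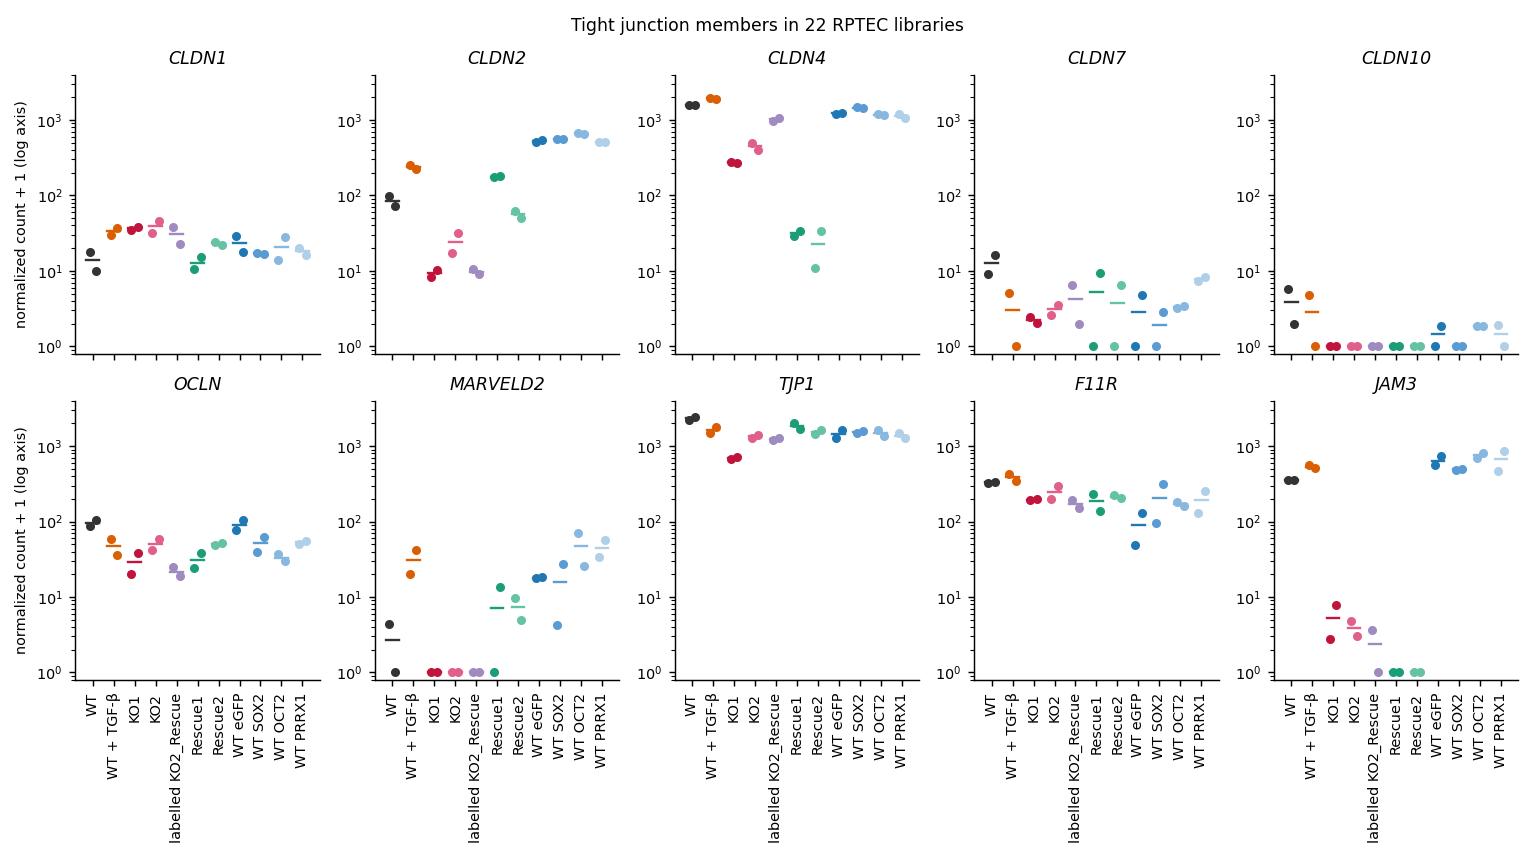
Normalized count + 1 (log axis) of the 10 members in each of the 22 libraries: points are libraries, horizontal lines are the means of 2. CLDN2, CLDN4 and JAM3 were called lower in both knockout clones, as were 5.73% of all genes. Other members also lie apart between WT and knockout libraries, and the share of all genes that do was not computed. CLDN7 stays at or below 15.2 and CLDN10 at or below 4.78 normalized counts everywhere.

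CLDN4 (ENSG00000189143, chr7:73799542-73832690, plus strand, 1 exon in its canonical transcript), a claudin that tightens the seal to cations, had the highest level per length of any claudin in WT cells and fell in both knockout clones. Its normalized counts were 1561 and 1556 in WT, against 278.2 and 270.4 in KO1 and 499.3 and 395.8 in KO2, while TGF-β gave 1970 and 1919. Both clones lay below every WT and TGF-β library and did not overlap them. The change was −2.50 ± 0.33 (SE) in KO1 (adjusted p = 2.24e-05, limma) and −1.81 ± 0.33 in KO2 (adjusted p = 6.55e-04). With TGF-β it was 0.32 ± 0.33 (adjusted p = 0.612), with a 95% interval of −0.39 to 1.03.

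In the 10% FBS medium CLDN4 was lower still in the clones that carry SETD2 again. WT_eGFP had 1214 and 1223 normalized counts, Rescue1 27.98 and 33.11, and Rescue2 9.913 and 33.15, so every rescue library was below every knockout library as well. The rescue clones differed from WT_eGFP by −5.63 ± 0.29 (adjusted p = 2.21e-09, limma) and from the knockout clones by −3.83 ± 0.23 (adjusted p = 4.71e-09), the latter across the difference in serum. WT_eGFP itself differed from WT by −0.35 ± 0.33 (adjusted p = 0.49). The line labelled KO2_Rescue had 976.5 and 1075 counts, above KO2 by 1.20 ± 0.33 (adjusted p = 0.0311, limma), a call that was lost without any 1 of the 4 libraries (adjusted p = 0.0729 to 0.186).

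CLDN2 (ENSG00000165376, chrX:106900164-106930861, plus strand, 2 exons), the cation and water pore, moved in opposite directions with knockout and with TGF-β. Its normalized counts were 95.88 and 71.47 in WT, against 7.394 and 9.376 in KO1 and 16.24 and 30.73 in KO2, while TGF-β gave 255.2 and 225.4. The 4 groups did not overlap: TGF-β was highest, then WT, KO2 and KO1. The change was −3.17 ± 0.27 (SE) in KO1 (adjusted p = 2.57e-07, limma), −1.84 ± 0.27 in KO2 (adjusted p = 9.81e-05) and 1.52 ± 0.27 with TGF-β (adjusted p = 0.00106). The direct comparison of both knockout clones with TGF-β-treated WT gave −4.03 ± 0.23 (adjusted p = 3.59e-09). In a fit to the libraries of the 2 groups alone, the KO2 and TGF-β changes were not called (adjusted p = 0.0956 and 0.0983).

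CLDN2 was higher in WT_eGFP than in WT, and in the rescue clones than in the knockout clones. WT_eGFP had 505.0 and 547.6 normalized counts, above WT by 2.65 ± 0.27 (adjusted p = 4.75e-06, limma). Rescue1 had 173.7 and 177.4 and Rescue2 61.46 and 49.3, above all knockout libraries, and the rescue clones differed from the knockout clones by 2.75 ± 0.19 (adjusted p = 2.01e-08). The 2 differences were apart by 0.10 ± 0.33 (adjusted p = 0.85), with a 95% interval of −0.61 to 0.81. Within the 10% FBS medium the rescue clones were below WT_eGFP by 2.41 log2 units (change −2.41 ± 0.23, adjusted p = 2.23e-06). Rescue2 was below Rescue1 (change −1.66 ± 0.27, adjusted p = 0.00385, limma), a comparison in which 0.994% of all genes were called and which was not called without Rescue2 replicate 2 (adjusted p = 0.0534).

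CLDN1 (ENSG00000163347, chr3:190305707-190322446, minus strand, 4 exons), a claudin of tight barriers, went the other way, at levels of 44.9 counts or less. It had normalized counts of 16.53 and 9.043 in WT, 33.35 and 37.61 in KO1, 30.85 and 44.9 in KO2, and 28.62 and 36.16 with TGF-β. All 6 knockout and TGF-β libraries were above both WT libraries. The change was 1.46 ± 0.50 (SE) in KO1 (adjusted p = 0.0309, limma), 1.53 ± 0.50 in KO2 (adjusted p = 0.0319) and 1.32 ± 0.50 with TGF-β, which was not called (adjusted p = 0.0882). The KO1 call was lost without WT replicate 2, KO1 replicate 1 or KO1 replicate 2 (adjusted p = 0.205, 0.058 and 0.102), and the KO2 call without WT replicate 2, KO2 replicate 1 or KO2 replicate 2 (adjusted p = 0.216, 0.0567 and 0.184). Scaling every library to the same total also ended both calls (adjusted p = 0.0972 and 0.057), as did fitting the 2 groups alone (0.207 and 0.15) and testing all genes without the filter (0.0594 and 0.0604).

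CLDN7 and CLDN10 stayed near the limit of detection, taken as 3 normalized counts per library. CLDN7 had 8.09 and 15.17 counts in WT and 1.442, 1.021, 1.591 and 2.579 in the knockout libraries, so its mean in WT was at least 3.88-fold higher than in either clone. Unedited cells of other groups were also low, at 4.06 and 0 with TGF-β, 0 and 3.756 in WT_eGFP and 0 and 1.857 in WT_SOX2. WT_OCT2 had 2.237 and 2.412 and WT_PRRX1 6.272 and 7.362, so low CLDN7 was not particular to the knockout clones. CLDN10, a claudin with proximal tubule and thick ascending limb forms, reached 4.776 in WT replicate 1 and 3.75 in 1 TGF-β library. It was at 0 in every knockout and rescue library, and also in both WT_SOX2 libraries. WT_eGFP, WT_OCT2 and WT_PRRX1 libraries had at most 0.9258.

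Per length of transcript, on the scale of normalized counts per kb of the canonical transcript, the claudin mRNA of WT cells was mostly CLDN4. Over the 22 claudins in the table, CLDN4 made up 54.1% of the summed level in WT, CLDN16 21.8%, CLDN12 16.4% and CLDN2 1.66%. The sum was 1722 and 1676 per kb in WT, 746.4 and 792.4 in KO1, and 812.6 and 801.0 in KO2, so the knockout libraries lay below WT without overlap. CLDN12, an unusual claudin without the usual scaffold-binding tail, took 61.3% of the sum in KO1 and 50.1% in KO2, with CLDN4 at 21.1% and 32.7%. Its own level was 1114 and 852.8 normalized counts in WT and 1352 to 1769 in the knockout libraries. Its changes of 0.77 and 0.55 (adjusted p = 7.52e-04 and 0.0118, limma) were under the 1 log2 unit that a call needs. In the rescue clones the sum was 417.1 to 519.9 per kb, of which CLDN12 was 62.8% in Rescue1 and 68.9% in Rescue2, CLDN2 12.7% and 4.44%, and CLDN4 3.88% and 3.03%. WT_eGFP, in the same medium, had 1457 and 1446 per kb with CLDN4 at 49.5%.

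**Figure D3:**
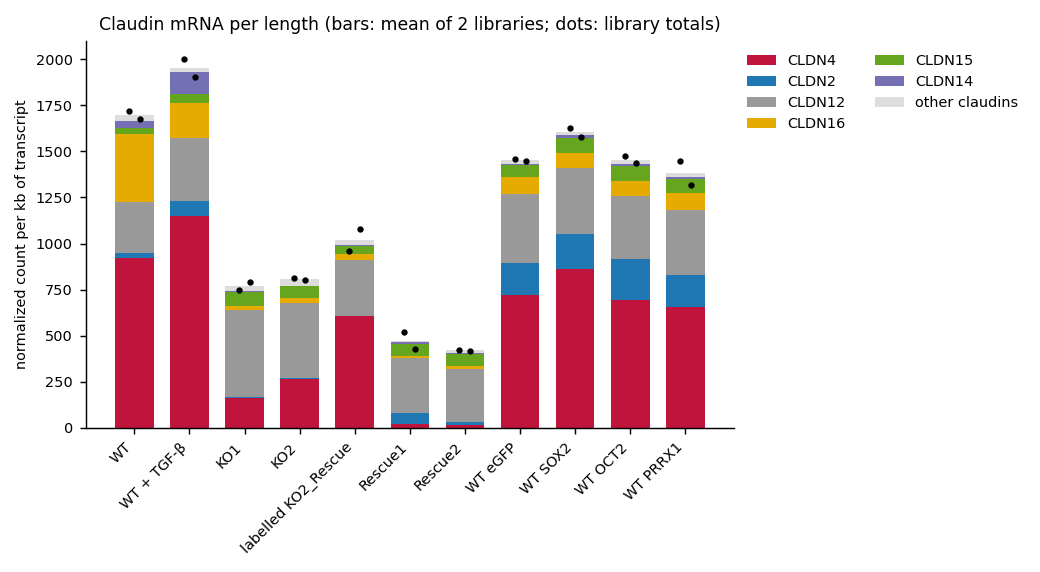
Claudin mRNA per length in each group (vertical axis, normalized counts per kb of canonical transcript, from 0): stacked bars are means of 2 libraries and dots are the totals of single libraries over 22 claudins. CLDN4 is 54.1% of the WT bar and 3.88% of the Rescue1 bar, while CLDN12 stands at 278.3 per kb in WT and 472.3 in KO1.

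Of 18 other claudins, 17 were in the table and 6 were tested. CLDN16, a claudin of magnesium and calcium handling in the thick ascending limb, fell in both clones, from 1022 and 1177 normalized counts in WT to 98.80 and 45.27 in KO1 and 68.10 and 107.0 in KO2 (changes −4.01 and −3.67). CLDN14, a claudin that lowers cation passage, fell in both (changes −2.92 and −3.90) and rose with TGF-β (1.69), from 91.50 and 44.54 counts in WT to 217.1 and 199.6. WT_eGFP against WT also called CLDN16 and CLDN14 lower (changes −2.06 and −2.29) and 1 of the 6 higher, beside 12.7% of all genes called. In the rescue clones against WT_eGFP, CLDN16 was called lower (−2.82) and CLDN14 was not called (−0.28). Of the 6, 2 were lower and 2 higher in KO1 (13.1% and 12.0% of all genes), 2 lower and 0 higher in KO2 (7.29% and 9.02%), and 1 higher with TGF-β (3.58%), with a median change of −0.55 in KO1 and −0.09 in KO2. CLDN3, the gene next to CLDN4, had changes of −1.87 and −0.72 that were not called, at 16.40 and 31.95 counts in WT.

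OCLN (ENSG00000197822, chr5:69492292-69558104, plus strand, 9 exons) encodes occludin, a membrane protein of the strands. OCLN had 86.2 and 104.0 normalized counts in WT, 19.24 and 37.45 in KO1, 40.94 and 57.36 in KO2, and 57.2 and 35.42 with TGF-β. All knockout and TGF-β libraries were below both WT libraries. The change was −1.78 ± 0.42 (SE) in KO1 (adjusted p = 0.00365, limma), and −0.95 ± 0.42 in KO2 and −1.06 ± 0.42 with TGF-β were not called (adjusted p = 0.113 and 0.11). Fitted to the libraries of WT and KO1 alone, the KO1 change was not called (adjusted p = 0.125). A near-identical pseudogene, OCLNP1, was counted separately at 5.9 to 46.9 counts, and reads may be split between them. Summed with OCLNP1 the changes were −1.31 in KO1 (adjusted p = 0.00121, called), −0.62 in KO2 (adjusted p = 0.102) and −0.85 with TGF-β (adjusted p = 0.0424, under 1 log2 unit).

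In 10% FBS, OCLN was at 76.3 and 103.8 normalized counts in WT_eGFP, 23.3 and 37.11 in Rescue1, and 48.44 and 50.61 in Rescue2. The rescue libraries were all below WT_eGFP (change −1.20 ± 0.37, adjusted p = 0.0227, limma). That call was lost without Rescue1 replicate 1, WT_eGFP replicate 1 or WT_eGFP replicate 2 (adjusted p = 0.0645, 0.0579 and 0.174), and summed with OCLNP1 it was −1.18 (adjusted p = 0.00139).

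MARVELD2 (ENSG00000152939, chr5:69415065-69444330, plus strand, 7 exons), tricellulin, was higher with TGF-β than in untreated WT, where it was near the limit of 3 counts. MARVELD2 had 3.389 and 0 normalized counts in WT, TGF-β-treated WT had 19.46 and 40.96, and it was at 0 in all 4 knockout libraries and both libraries labelled KO2_Rescue. The TGF-β libraries were above all of these, with a change from WT of 3.81 ± 1.13 (SE, adjusted p = 0.0303, limma) that fell to 2.37 with a pseudocount of 5. Against TGF-β-treated WT the knockout clones were at least 10.1-fold lower. The TGF-β call was lost without WT replicate 2, WT_TGFb replicate 1 or WT_TGFb replicate 2 (adjusted p = 0.25, 0.0704 and 0.173).

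In the 10% FBS medium MARVELD2 had 16.96 and 17.22 counts in WT_eGFP, 0 and 12.51 in Rescue1, and 8.681 and 3.958 in Rescue2. All 4 rescue libraries were below both WT_eGFP libraries, and 1 was at 0 as in the knockout clones. Against the knockout clones the rescue mean was at least 2.10-fold higher (adjusted p = 0.0271, limma). This call was lost against KO1 or KO2 alone (adjusted p = 0.0668 and 0.0817) and in 6 of 8 fits that left out a library: without any knockout library, without Rescue1 replicate 2 (adjusted p = 0.143) or without Rescue2 replicate 1 (adjusted p = 0.0857). WT_eGFP against WT was not called (change 3.11 ± 1.13, adjusted p = 0.0565).

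TJP1 (ENSG00000104067, chr15:29699367-29968915, minus strand, 28 exons) encodes ZO-1, which ties claudins to actin. Its normalized counts were 2195 and 2467 in WT, 675.7 and 715.4 in KO1, 1284 and 1399 in KO2, and 1472 and 1803 with TGF-β. Both clones and both TGF-β libraries were below WT, and KO1 was below KO2 without overlap. The change was −1.74 ± 0.14 (SE) in KO1 (adjusted p = 1.01e-07, limma). In KO2 it was −0.79 ± 0.14 (adjusted p = 4.02e-04) and with TGF-β −0.51 ± 0.14 (adjusted p = 0.0169), both under the 1 log2 unit that a call needs. Scaled to the same total, the KO2 change was −1.02 and passed it.

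TJP1 was the member with the clearest gap between the clones besides CLDN2. KO2 against KO1 was 0.95 ± 0.14 for TJP1 (adjusted p = 2.64e-04, limma) and 1.33 ± 0.27 for CLDN2 (adjusted p = 0.00379), the only 1 of 8 members called there, beside 6.97% of all genes called and 4.49% called higher. Without KO2 replicate 2 the CLDN2 difference was 0.89 and not called (adjusted p = 0.0604). Rescue1 had 2031 and 1704 normalized counts of TJP1, Rescue2 1464 and 1618, and WT_eGFP 1294 and 1619. The rescue clones were above the knockout clones by 0.81 ± 0.10 (adjusted p = 7.08e-06, under 1 log2 unit), which was 1.28 against KO1 alone (called) and 0.34 against KO2 alone, and differed from WT_eGFP by 0.23 ± 0.12 (adjusted p = 0.178), while WT_eGFP was itself below WT (change −0.68 ± 0.14, adjusted p = 0.0017).

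JAM3 (ENSG00000166086, chr11:134069071-134152001, plus strand, 9 exons) encodes JAM-C, an adhesion protein of epithelial and endothelial junctions, and showed the widest range of group means of the 10 members. Its normalized counts were 358.4 and 352.1 in WT, and TGF-β gave 553.5 and 514.6, against 1.735 and 6.881 in KO1, 3.759 and 2.024 in KO2, and 2.709 and 0 in the line labelled KO2_Rescue. Every library of an edited clone was thus at a few counts and the WT and TGF-β libraries were between 352.1 and 553.5. The change was −6.26 ± 0.58 (SE) in KO1 (adjusted p = 6.1e-07, limma) and −6.55 ± 0.58 in KO2 (adjusted p = 6.34e-07), on a scale that depends on the pseudocount: with 5 in place of 1 they were −5.33 and −5.52. With TGF-β the change was 0.59 ± 0.58 (adjusted p = 0.589, 95% interval −0.66 to 1.83).

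JAM3 was at 0 in all 4 rescue libraries, against 553.6 and 733.3 normalized counts in WT_eGFP in the same medium. Taken against a limit of 3 counts a library, the rescue clones were at least 214-fold lower (adjusted p = 4.15e-09, limma). Knockout and rescue libraries are all near that limit, so no fold between them is given. NCAPD3 overlaps the end of JAM3 on the opposite strand and had 284.2 to 1189 counts over the 22 libraries, the libraries with JAM3 at 0 included.

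JAM3 lies among 6 tested genes within 500 kb, of which NCAPD3, THYN1 and GLB1L2 were called lower in both knockout clones, as were 5.73% of all genes. GLB1L2, which starts 262.9 kb from the start of JAM3, had changes of −5.34 and −4.19 in the knockout clones and −3.46 in the rescue clones against WT_eGFP. NCAPD3 had changes of −1.54 and −1.51, and 0.75 in the rescue comparison, which was not called. VPS26B, ACAD8 and IGSF9B were not called in either clone. Of 17 tested neighbours of CLDN4 only RFC2 was called lower in both clones, and STX1A was called higher in both (changes 1.35 and 1.32) and in the rescue clones against WT_eGFP (1.53). Called lower in both were, of 5 of CLDN2, only NUP62CL (changes −3.62 and −3.33) and, of 5 of TJP1, none, though ULK4P3 and CHRFAM7A were in KO1.

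**Figure D4:**
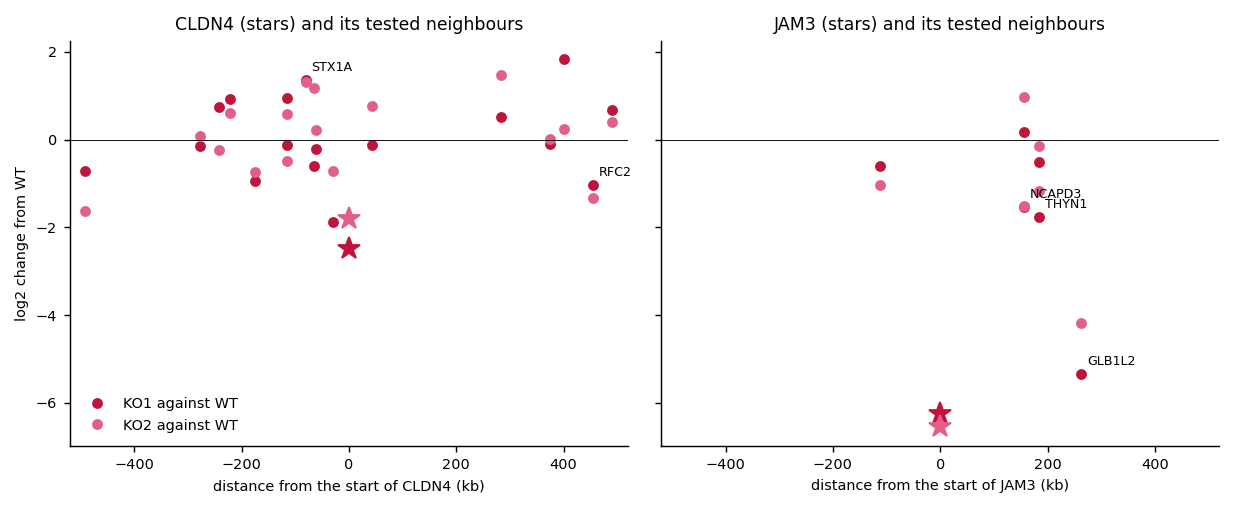
Log2 change from WT (vertical axis) of CLDN4 and JAM3 (stars) and their tested neighbours (points) against distance from the start of each gene (kb), in KO1 and KO2. Named points were called the same way in both clones: GLB1L2 is at −5.34 and −4.19 beside JAM3, while CLDN3, next to CLDN4, is at −1.87 and −0.72 and was not called.

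F11R (ENSG00000158769, chr1:160995211-161021343, minus strand, 10 exons) encodes JAM-A, an adhesion protein of epithelial junctions, and its values depended on how reads were assigned. The normalized counts were 326.3 and 338.4 in WT, 189.6 and 197.4 in KO1, 196.0 and 297.3 in KO2, and 424.8 and 347.1 with TGF-β. Both clones were below WT, but their changes of −0.78 ± 0.51 and −0.46 ± 0.51 (SE) were not called (adjusted p = 0.255 and 0.569, limma). A protein-coding gene with no symbol here, ENSG00000270149, overlaps F11R on the same strand and was listed at 64.4 and 378.9 counts in WT, 455.7 and 326.3 in KO1, and 0 to 345.2 elsewhere. Summed over both, F11R was 390.7 and 717.3 in WT and 645.3 and 523.7 in KO1, and the KO1 change turned to 0.13 (adjusted p = 0.766).

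The same held for the F11R calls in 10% FBS. F11R alone was at 48.22 and 130.4 normalized counts in WT_eGFP, below WT (change −2.05 ± 0.51, adjusted p = 0.0079, limma) and below the rescue clones, which had 138.1 to 230.0 (change 1.28 ± 0.44, adjusted p = 0.0413). Summed with the overlapping gene, WT_eGFP had 296.9 and 329.4 and the rescue libraries 215.6 to 420.8, so those groups overlapped. The changes were then −0.76 (adjusted p = 0.0838) and −0.07 (adjusted p = 0.895). The call against WT was also lost without WT_eGFP replicate 1 (adjusted p = 0.124), and that against the rescue clones without Rescue1 replicate 1, Rescue2 replicate 1, Rescue2 replicate 2 or WT_eGFP replicate 1 (adjusted p = 0.112, 0.0842, 0.0662 and 0.515).

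The comparisons that rest on the 10% FBS lines can be set out by count. Rescue clones against knockout clones called 5 of 8 members beside 23.3% of all genes: CLDN2 and MARVELD2 higher, CLDN4 and CLDN1 lower, and JAM3, whose call is not read as a difference because both groups lay near the limit of detection. CLDN1 (change −1.12 ± 0.35, adjusted p = 0.0172, limma) was lost there without KO2 replicate 2 or Rescue1 replicate 1 (adjusted p = 0.0655 and 0.0571), and against KO1 or KO2 alone (adjusted p = 0.0535 and 0.0509). Rescue clones against WT_eGFP called 5 of 8 beside 13.1%: CLDN2, CLDN4, OCLN and JAM3 lower and F11R higher. WT_eGFP against WT called CLDN2 and F11R, 2 of 8, beside 12.7%. The line labelled KO2_Rescue against KO2 called 2 of 8 beside 4.17%: CLDN4 higher and CLDN2, at 9.498 and 8.03 normalized counts, lower (change −1.26 ± 0.27, adjusted p = 0.00696). The CLDN2 call was lost without KO2 replicate 2 or KO2_Rescue replicate 2 (adjusted p = 0.097 and 0.0632).

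To set the rescue change against the change that went with medium and vector, the difference between rescue and knockout clones was compared with the difference between WT_eGFP and WT, a comparison added after the values were seen, in which 23.8% of all genes were called. CLDN4 (−3.47 ± 0.40, adjusted p = 8.3e-06, limma) and CLDN1 (−1.89 ± 0.61, adjusted p = 0.0263) had lower values of this difference and TJP1 a higher one (1.49 ± 0.17, adjusted p = 5.9e-06). CLDN4 was lower in both steps (−3.83 from knockout to rescue and −0.35, not called, from WT to WT_eGFP), whereas CLDN1 was at −1.12 and 0.76 and TJP1 at 0.81 and −0.68, of which only the −1.12 was called. CLDN2 did not differ beyond its error, as given above. The CLDN1 difference was lost without WT replicate 2, KO2 replicate 2 or WT_eGFP replicate 1 (adjusted p = 0.128, 0.0545 and 0.126). F11R also passed (1.903 ± 0.63, adjusted p = 0.0287), but with the overlapping gene summed it was −0.02 (adjusted p = 0.971), and JAM3 is left out because knockout and rescue libraries are near 0.

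Knockout clones against TGF-β-treated WT called 4 of 8 members, all lower, beside 20.2% of all genes called and 9.83% called lower: CLDN2, CLDN4 (−2.47 ± 0.29, adjusted p = 6.82e-06, limma), JAM3 (−6.99 ± 0.50, adjusted p = 3.79e-08) and MARVELD2. CLDN1 differed by 0.17 ± 0.43 there (adjusted p = 0.802), and both groups were above WT.

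WT_SOX2, WT_OCT2 and WT_PRRX1 against WT_eGFP called 0 of 8 members each by limma, beside 0.0206%, 0.0343% and 0.0411% of all genes. At an unadjusted p under 0.05 there were 0, 1 and 1 members, OCLN with OCT2 (change −1.44 ± 0.42) and F11R with PRRX1 (1.17 ± 0.51). CLDN2 lay between 512.8 and 678.1 normalized counts in these 6 libraries and CLDN4 between 1045 and 1471. JAM3 lay between 469.8 and 860.7. The 95% intervals of the CLDN4 changes were −0.45 to 0.97 with SOX2, −0.76 to 0.65 with OCT2 and −0.84 to 0.57 with PRRX1. These lines are WT pools in a different medium from the knockout clones, and are compared with WT_eGFP rather than WT. The part of SOX2, OCT2 and PRRX1 in the CLDN4 change of the knockout clones was not tested.

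Of 10 other membrane proteins of the junction, 9 were tested. LSR (angulin-1), which recruits tricellulin to the 3-cell contacts, fell from 1444 and 1466 normalized counts in WT to 40.48 and 62.00 in KO1 and 70.46 and 98.33 in KO2 (changes −4.83 and −4.11). LSR rose in the rescue clones against the knockout clones (3.07) and was not called against WT_eGFP (−0.12). WT_eGFP was itself called lower than WT for LSR (−1.29) and EPCAM (−1.49), 2 of the 9 tested, beside 12.7% of all genes called. CXADR, the virus receptor of the JAM-like family, fell from 28.26 and 42.15 counts in WT to 0.967 and 0 in KO1 and 0 and 4.238 in KO2, and EPCAM, which binds claudins, fell with changes of −3.51 and −1.74. JAM2, the usual binding partner of JAM-C, went the other way: it had 3.173 and 0 counts in WT, 134.0 and 102.3 in KO1, 79.10 and 36.30 in KO2, and 15.80 to 48.08 in the rescue libraries against 0 and 2.64 in WT_eGFP. So 3 of the 9 were lower and 1 higher in both clones, beside 5.73% and 6.95% of all genes, none were called with TGF-β, and the median change was −1.93 in KO1 and −0.44 in KO2.

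Of 23 plaque and polarity proteins, 21 were tested. PATJ, a polarity scaffold that binds claudins and ZO-3, was the only 1 of the 21 called in both clones (changes −1.97 and −1.66). It was called lower, as were 5.73% of all genes in both clones. PATJ was also lower in the rescue clones against WT_eGFP (−1.20). KO1 called 5 lower and 1 higher, beside 13.1% and 12.0% of all genes, KO2 1 lower and 0 higher, beside 7.29% and 9.02%, and the median change was −0.66 and 0.09. With TGF-β, CGNL1 (paracingulin) and ARHGEF2 fell and PRKCI (an atypical protein kinase C) rose, with changes of −2.21, −1.001 and 2.98. The ARHGEF2 and PRKCI calls lay near the threshold (adjusted p = 0.0384 and 0.0488, limma). CGNL1 was also called lower in KO1 (−1.48), and PRKCI higher in KO1 (2.88) and in WT_eGFP against WT (2.77). Of all genes, 7.84% were called with TGF-β.

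**Figure D5:**
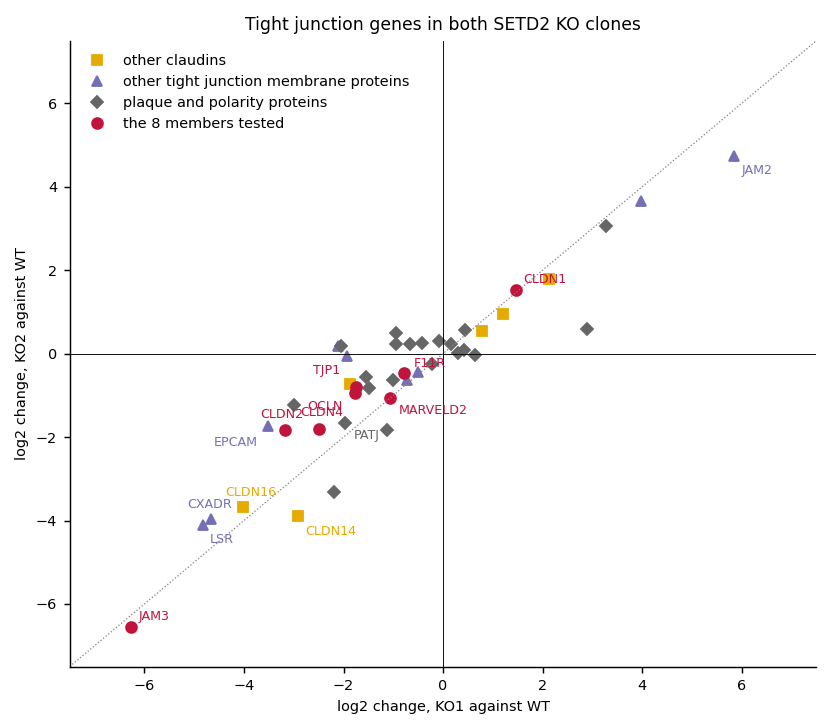
Log2 change from WT in KO1 (horizontal) and KO2 (vertical) of the 8 tested members and of 36 tested genes of the other tight junction lists; the dotted line marks equal change. Named list genes were called in both clones, JAM3 is lowest and JAM2 highest, and both clones share the WT libraries, so closeness to the line is partly built in.

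Of 15 transcription factors known to act on epithelial genes, 14 were in the table and 10 were tested. ZEB2, a repressor of epithelial genes, rose in both clones, from 317.5 and 330.4 normalized counts in WT to 2029 to 2280 (changes 2.65 and 2.80). It was also at 1886 and 1593 in WT_eGFP. OVOL2, a repressor of ZEB genes, fell from 14.63 and 15.51 counts in WT to 0 in the knockout libraries, and it was also at 0 in WT_eGFP. GRHL2, an activator of claudin genes, stayed below the filter, and HNF4A was at 0 in every library. The part of these factors in the changes of the members was not tested.

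The members' patterns over the 22 libraries were compared as a description, on the log2(normalized count + 1) scale, with libraries that share medium, clone and depth. JAM3 was most like RYR3, PHYHD1, UGT1A6, UGT1A1 and SLC29A4 (Pearson r = 0.962, 0.959, 0.955, 0.953 and 0.951), of which the UGT1A genes share exons. CLDN4 was most like EVPL, IQANK1, TCTN1, ADGRL2 and NDRG2 (r = 0.982, 0.927, 0.916, 0.913 and 0.908). Among the members, CLDN2 and MARVELD2 were closest (r = 0.834), then CLDN4 and JAM3 (r = 0.779), while CLDN2 and CLDN4, which both fell in the knockout clones, had r = 0.28.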

How the data were processed

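Poly(A) RNA of 22 libraries (TruSeq Stranded mRNA, paired reads) was quantified by the authors with Salmon 1.9.0 against Ensembl release 94 transcripts of GRCh38 and handled with DESeq2 1.26.0. The deposited table holds log2 values per gene in the form of a variance-stabilised count; the transformation is not given in the sources used here. Its lowest value, 11.3, was shared by all libraries and taken as a count of 0. With y = 2 to the power of the value and y0 that of the lowest value, (y − y0)²/y gave normalized counts, whose lowest steps put depth at roughly 7700000 to 19000000 reads per library. That depth is an estimate, so no counting intervals are given, and 3 normalized counts in a library were taken as the limit of detection.

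The 14585 genes that reached 10 normalized counts in 2 or more libraries were tested with limma 3.58.1 (R 4.3.3, moderated test with trend) on log2(normalized count + 1), all libraries together, each group with its own mean and without covariates. The design had assumed normalized counts, and its test was run on those computed back. On counts simulated for KO1 against WT (13706 genes), 178 of 200 genes changed by 2 log2 units were called, with 8 false calls. The simulation gave every gene the same dispersion, so it does not measure recovery for genes whose libraries vary more, such as MARVELD2. Coordinates and lengths are from GENCODE release 44, and promoters from RefSeq. The members and lists were chosen with earlier results of these data known. Named genes were all 10 members, list genes called in both knockout clones or with TGF-β (at most 6 a list), regulators called in both knockout clones (not all are reported here), and the 5 genes most like the 2 members with the widest range; neighbours, CLDN12, CLDN3, GRHL2 and HNF4A were named after their values were seen. Alternatives were the pseudocount, the filter, the scaling, the libraries fitted, a replicate block, and each library left out. The replicate numbers did not pair libraries.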

Additional observations from a re-analysis of the deposited data

Results flagged for a closer look

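The 2 knockout clones differed from each other in 2 members at an adjusted p under 0.05 (limma, a test of the difference itself). CLDN2 was higher in KO2 than in KO1 by 1.325 log2 units (adjusted p = 0.00379) and was called, but not without KO2 replicate 2 (adjusted p = 0.0604). TJP1 was higher by 0.946 (adjusted p = 2.64e-04), under the 1 log2 unit that a call needs. The 2 rescue clones differed in CLDN2, with a change of −1.655 from Rescue1 to Rescue2 (adjusted p = 0.00385), a comparison added after the values were seen.

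The step from knockout to rescue clones differed from the step from WT to WT_eGFP in 4 members that could be measured, again by a test of the difference itself that was added after the values were seen. The differences were −3.475 for CLDN4, −1.886 for CLDN1, 1.493 for TJP1 and 1.903 for F11R. That of F11R rests on how reads were divided with the gene that overlaps it, and those of CLDN1 and F11R were lost in 3 and 5 of 12 fits that left out a library.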

How the results depend on the processing

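Counts of called members were recomputed under every alternative and changed by over 1.5 times as follows. Fitting only the libraries of the groups compared, which leaves 2 or more residual degrees of freedom in place of 11, gave 0 for TGF-β-treated WT (main 2), 2 for KO2 (main 4), 0 for KO2 against KO1 (main 1), 1 for the line labelled KO2_Rescue (main 2), 1 for WT_eGFP (main 2) and 3 for rescue against WT_eGFP (main 5). A minimum mean of 50 normalized counts, which leaves MARVELD2, CLDN1 and OCLN untested, gave 1 for TGF-β and 3 for rescue against knockout clones (main 5). The latter was 2 with a pseudocount of 5 and, in an alternative chosen after seeing the data, 3 against KO2 alone. In the fit to compared libraries alone, KO1 had 4 (main 6), without OCLN (adjusted p = 0.125) and CLDN1 (0.207). Scaling to the same total gave 2 for KO2 against KO1. Leaving out 1 library at a time, with a lone library assumed to vary like the other groups, the count ranged from 1 to 2 for TGF-β, 0 to 2 for KO2 against KO1, 3 to 5 for rescue against knockout, 0 to 1 for the line labelled KO2_Rescue, 1 to 3 for WT_eGFP and 3 to 6 for rescue against WT_eGFP. Other counts stayed within 1.5 times, and leaving the line labelled KO2_Rescue out of the fit changed none beyond that.

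Replicate numbers did not pair libraries: over 55 pairs of groups the correlation of same-numbered deviations ran from −0.143 to 0.0955. A fit with the replicate block called the same number of members in every comparison, 6 in KO1, 4 in KO2 and 2 with TGF-β.

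Directions turned in F11R, CLDN2 and MARVELD2. F11R summed with ENSG00000270149 gave −0.10 with TGF-β and 0.13 in KO1, neither called without the sum, and −0.0655 for rescue against WT_eGFP and −0.0223 for the step from knockout to rescue against that from WT to WT_eGFP, both called without it. Scaled to the same total F11R was −0.0268 with TGF-β. For that difference of steps, CLDN2 was −0.15 with a pseudocount of 5 and −0.12 to 0.32 without 1 library, and MARVELD2 −1.84 to 0.29. Of 841 values of single members under alternatives, 753 kept direction and side of the threshold, 72 lost a call, 6 gained one and 10 turned. Members under 50 counts (CLDN1, MARVELD2, OCLN in part) lie where 2 libraries a group and this depth give wide errors.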
